A study of Rattus norvegicus with 39 samples.

Results

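The comparison described here sets 4 libraries from ketamine-treated D2-Cre females in proestrus against 5 from ketamine-treated D2-Cre females in diestrus, of 39 libraries in the series. The members were chosen by the sample titles, which give sex, Cre line, cycle stage, treatment and pulldown, and each count column was matched to its title by the library number that ends it. Every rat was a female heterozygous for a Cre recombinase that follows the dopamine D2 receptor gene, had received RiboTag virus in the nucleus accumbens (NAc), and gave 1 library. The virus carries an HA-tagged ribosomal protein that is switched on only in Cre-expressing cells, and the sequenced RNA is what an antibody against the tag pulled down with ribosomes. All 9 rats had 6 injections of 10 mg/kg ketamine, each given in the stage of their group, and were killed 4 days after the last treatment session, 30 min after return to the test chamber without a drug. By the study's methods, ketamine rats were kept only if their activity had grown over the course of treatment, and 1 proestrus library was excluded, so both groups are selected and the proestrus group is the smaller. Age is not given in the labels. The same stage contrast in saline-treated D2-Cre females (10 libraries) and in ketamine-treated D1-Cre females (10 libraries) served for comparison.

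Proestrus is the phase of the rodent cycle in which estradiol peaks and progesterone rises before ovulation, and diestrus is a phase of lower estradiol. D2-expressing medium spiny neurons (MSNs) of the NAc form the striatal output that is inhibited by dopamine through D2 receptors and excited by adenosine through the receptor that Adora2a encodes. Ketamine blocks NMDA-type glutamate receptors. Estradiol and progesterone act mostly through nuclear receptors that bind DNA and recruit coactivators and corepressors, and also through receptors at the membrane that signal to kinases and cAMP.

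Total counts were 16175294 to 23533750 in the 5 diestrus libraries and 19928297 to 43224256 in the 4 proestrus libraries. Adora2a was 455 to 1011 CPM (counts scaled to library size) in the 9 D2 libraries and 141 to 222 CPM in the 10 ketamine-treated D1 libraries. The means were 826 ± 168 (SD, n = 9) and 179 ± 25.1 (SD, n = 10), a ratio of 4.62 (2-sided exact permutation test, p = 2.17e-05, the smallest this design allows). No other D2 marker and no D1 marker of the lists could be looked up by symbol. Adora2a did not separate the stages, since it was 795, 972, 785 and 782 CPM in proestrus libraries 6, 22, 30 and 38 and 924, 768, 1011, 455 and 945 CPM in diestrus libraries 8, 16, 24, 32 and 40. The low value is diestrus library 32. The summed level of 11 glial, vascular and fibroblast markers, of 38 listed, was 282 to 504 CPM in proestrus and 341 to 547 CPM in diestrus, so the groups overlapped. Without proestrus library 6 they did not, since the remaining 3 proestrus libraries had 282 to 332 CPM. The highest sums were in proestrus library 6 and diestrus library 32, and none of the 11 was at 0 in any of the 9 libraries. Libraries 6 and 32 stood apart from their groups in several genes below, and log2 fold changes printed below that moved by over 1.5 times without library 6 are also given without it. Of the saline D2 libraries, diestrus library 39 held 2396517 counts and the other 9 held 17320637 to 22870510. In a pulldown from tissue, fewer tagged cells and less RNA per tagged cell cannot be told apart.

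**Figure D1:**
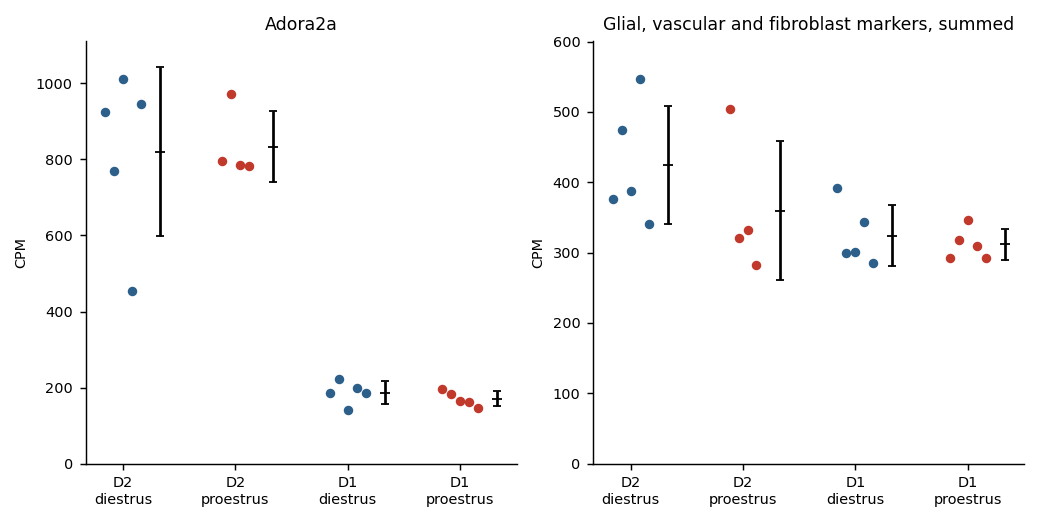
Marker levels per library in ketamine-treated females. Points are libraries, with the mean and SD at their right, in CPM on a linear axis from 0, by Cre line and stage. Adora2a is 455 CPM or more in all D2 libraries and 222 CPM or less in all D1 libraries, and the summed glial, vascular and fibroblast markers overlap between stages.

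No gene passed the test for stage in ketamine-treated D2 neurons. Of 13595 genes tested with edgeR's quasi-likelihood test, 0 had a Benjamini-Hochberg adjusted p under 0.1 (0% called), and the lowest adjusted p was 0.608. Before adjustment, 469 genes (3.45% of those tested) had p under 0.05, of which 307 (2.26%) were higher and 162 (1.19%) lower in proestrus. DESeq2, the tool the study used, called 4 genes with 2 surrogate variables, and 369 had an unadjusted p under 0.05. Without surrogate variables DESeq2 called 3 genes. Surrogate variables are library-to-library trends estimated from the counts and fitted beside the stage. The estimates were close for most genes: the median standard error (SE) of a log2 fold change was 0.098, with quartiles of 0.071 and 0.175. The log2 fold change, always proestrus minus diestrus here, was under 0.2 in size for 84.0% of genes, and its median was 0.01. In 90 genes (0.662%) all proestrus libraries lay above or below all diestrus libraries. Leaving out proestrus library 6 raised the genes with an unadjusted p under 0.05 from 469 to 1988, still with 0 called, and in that set the summed glial, vascular and fibroblast markers did not overlap between stages; their part in this count was not tested. Without diestrus library 8 the count was 872 and without proestrus library 30 it was 308, and over the other libraries left out it ran from 369 to 612. Leaving out diestrus library 32 gave 1 call, Cbr3, a carbonyl reductase, lower in proestrus (log2 fold change −0.61, edgeR adjusted p = 0.081).

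**Figure D2:**
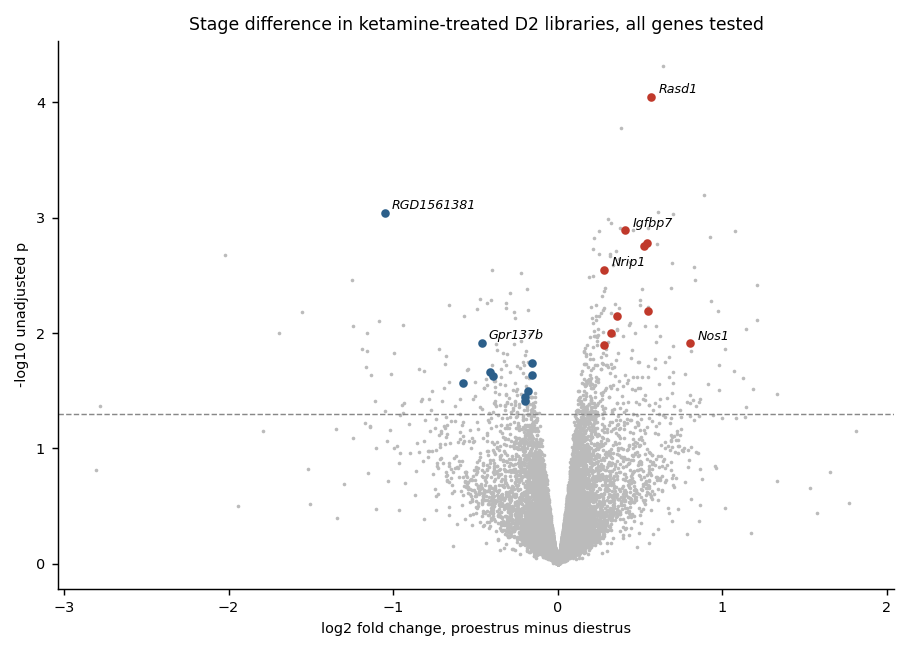
Stage difference of the 13595 genes tested. The x axis is the log2 fold change, proestrus minus diestrus, and the y axis the −log10 of the unadjusted p from edgeR; the dashed line marks p of 0.05. Colored points are the 10 genes with a symbol of lowest p in each direction; none passed the adjusted threshold, and Rasd1 lies highest among them.

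The genes named next are those of lowest p with a known symbol, 10 in each direction. They were ranked by this same contrast, so their p-values describe the ranking. None passed the adjusted threshold in edgeR. Only 1544 of the 13595 genes tested carry a symbol here, and 32 of these were higher and 17 lower at an unadjusted p under 0.05. Genes without a symbol made up the remaining 420 of 469.

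Rasd1, a small GTPase first described as induced by dexamethasone, had the lowest p of the genes with a symbol. It was 31.6, 27.6, 31.5 and 30.3 CPM in proestrus libraries 6, 22, 30 and 38. In diestrus libraries 8, 16, 24, 32 and 40 it was 21.3, 22.7, 20.3, 16.6 and 21.4 CPM. All 4 proestrus libraries lay above all 5 diestrus libraries. The means were 30.2 ± 1.88 (SD, n = 4) and 20.4 ± 2.33 CPM (SD, n = 5), and the fitted log2 fold change was 0.57 ± 0.10 (SE), a fold of 1.48. The adjusted p was 0.608 in edgeR, 0.0064 in DESeq2 with 2 surrogate variables and 0.0019 in DESeq2 without them, and over all alternatives it ran from 0.0019 to nearly 1. A single edgeR model of all 39 libraries called it too (adjusted p = 0.052). The exact permutation test of 4 against 5 libraries gave p = 0.0159, the smallest that 126 splits allow. Leaving out each library in turn gave a log2 fold change of 0.46 to 0.65.

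Nrip1 and Dlx2 had smaller differences with little spread. Nrip1 encodes a corepressor of nuclear receptors, the estrogen receptor among them, and is itself a known estradiol-induced gene. It was 30.5, 31.2, 33.6 and 29.9 CPM in the proestrus libraries and 24.9, 28.3, 25.8, 27.0 and 24.5 CPM in the diestrus libraries, with no overlap (log2 fold change 0.28 ± 0.08, SE; edgeR adjusted p = 0.998). Dlx2, a homeobox transcription factor of GABA neuron development, was 8.20, 9.50, 9.22 and 8.61 CPM in proestrus and 6.66, 7.29, 7.05, 6.77 and 6.90 CPM in diestrus. These groups did not overlap either (0.36 ± 0.11, SE).

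Nos1, the neuronal nitric oxide synthase and a marker of a class of striatal interneurons, was 7.66, 11.8, 17.1 and 11.7 CPM in proestrus and 4.71, 5.19, 7.98, 7.80 and 6.84 CPM in diestrus. Proestrus library 6 fell inside the diestrus range and the other proestrus libraries lay above it. The log2 fold change was 0.81 ± 0.26 (SE), and 1.24 without library 6. Sst, the somatostatin precursor made by the same interneuron class, was 239, 149, 181 and 108 CPM in proestrus and 146, 83.5, 167, 177 and 114 CPM in diestrus, with overlap (0.45 ± 0.25, SE; unadjusted p = 0.126; 0.17 without library 6). Both interneuron genes were detected in every library of a D2-Cre pulldown. Sstr2, a somatostatin receptor, was 22.5, 17.6, 16.2 and 13.2 CPM in proestrus against 12.8, 19.6, 17.0, 14.3 and 13.5 CPM in diestrus. Its fitted log2 fold change of 0.33 ± 0.11 (SE) fell to 0.19 when proestrus library 6 was left out.

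The other leading genes that were higher in proestrus overlapped between stages in every case. Cux2, a homeobox transcription factor, was 16.2 CPM in proestrus library 6 and 24.1 to 24.4 CPM in the remaining 3, against 14.9 to 20.4 CPM in diestrus (0.28 ± 0.10, SE). Without library 6 its groups did not overlap and the log2 fold change was 0.50. Igfbp7, a secreted binding protein of insulin-like growth factors, was 26.1 and 21.9 CPM in proestrus libraries 6 and 22 but 15.0 and 14.5 CPM in 30 and 38, beside 14.5 to 18.2 CPM in diestrus. Its log2 fold change of 0.41 ± 0.10 (SE) was 0.18 without library 6. Boc, a co-receptor for Hedgehog proteins, had 7.51 to 13.3 CPM in proestrus and 4.71 to 11.4 CPM in diestrus (0.54 ± 0.14, SE). C1qtnf1, a secreted C1q-like protein, had 3.25 to 7.88 CPM and 3.77 to 4.77 CPM (0.55 ± 0.17, SE). Fam43a had 6.04 to 10.1 CPM and 3.51 to 9.74 CPM (0.52 ± 0.13, SE). For Boc, C1qtnf1 and Fam43a the spread within a stage covered much of the difference between the means.

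The leading gene in the other direction was RGD1561381, annotated as similar to a microsomal glutathione S-transferase. It was 1.03 to 1.83 CPM in the 4 proestrus libraries and 2.84, 2.60, 3.17, 3.28 and 2.54 CPM in diestrus, with no overlap. The log2 fold change was −1.05 ± 0.24 (SE), a fold of 0.483, with an edgeR adjusted p of 0.998. DESeq2 without surrogate variables called it (adjusted p = 0.044), and over its alternatives the adjusted p ran from 0.044 to 1. The gene is low in abundance and has near relatives, between which Salmon could split reads.

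Dcun1d4, a component of the cullin neddylation machinery, was 110 to 114 CPM in proestrus and 116 to 136 CPM in diestrus without overlap (−0.15 ± 0.06, SE). Denr, a factor for re-initiation of translation, was 45.1 to 48.80 CPM in proestrus and 48.84 to 57.2 CPM in diestrus (−0.18 ± 0.07, SE). Its groups were separated by a gap of 0.04 CPM. Gpr137b, a lysosomal membrane protein, was 3.12 to 4.09 CPM in proestrus and 4.05 to 5.65 CPM in diestrus, and Ppp1r18, an actin-associated subunit of protein phosphatase 1, was 3.03 to 4.10 and 3.39 to 4.96 CPM. Their log2 fold changes were −0.46 ± 0.16 and −0.41 ± 0.16 (SE). Cbln1, a secreted organizer of synapses, was 1.26 to 2.75 and 1.29 to 4.27 CPM (−0.57 ± 0.23, SE; −0.35 with 1 surrogate variable and −0.31 under blocks of library numbers), and the MHC class I gene RT1-S3, which has close paralogs, was 3.02 to 4.10 and 2.90 to 7.85 CPM (−0.39 ± 0.15, SE). The groups of these 4 genes overlapped. Prmt2, an arginine methyltransferase that also acts as a nuclear receptor coactivator, Mid1ip1, a regulator of lipid synthesis, and Fundc1, a receptor for mitophagy, had log2 fold changes of −0.16, −0.20 and −0.20. These 3 estimates shrank to −0.07, −0.03 and −0.09 without proestrus library 6.

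**Figure D3:**
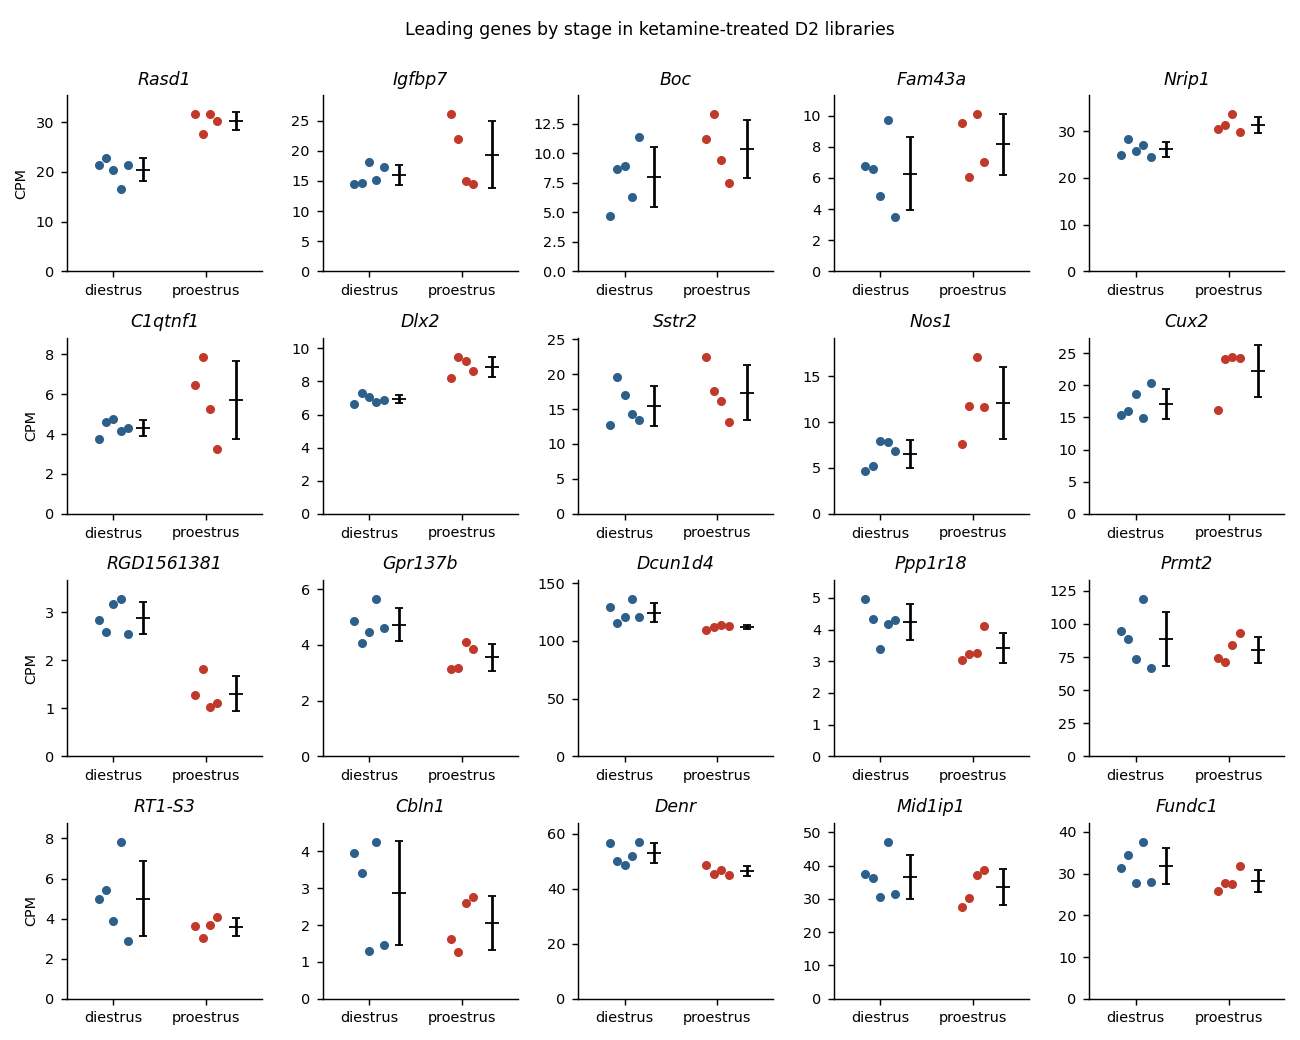
Levels of the 20 leading genes with a symbol in the 9 libraries. Each panel plots 1 gene in CPM on a linear axis from 0; points are libraries, with the mean and SD at their right. Rasd1, Nrip1, Dlx2, RGD1561381, Dcun1d4 and Denr do not overlap between stages, and the other 14 genes do.

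Of the genes without a symbol, ENSRNOG00000031232 had the lowest p of all (4.8e-05). It was 39.4, 25.3, 43.1 and 36.1 CPM in proestrus and 26.0, 20.9, 22.2, 30.6 and 17.8 CPM in diestrus, so library 22 overlapped with diestrus (log2 fold change 0.64 ± 0.11, SE; edgeR adjusted p = 0.608). ENSRNOG00000042702 was 126 to 144 CPM in proestrus and 94.1 to 117 CPM in diestrus without overlap (0.39 ± 0.07, SE; edgeR adjusted p = 0.760). ENSRNOG00000049099 was 0 to 1.12 CPM in proestrus and 1.44 to 7.08 CPM in diestrus (−2.02 ± 0.49, SE). DESeq2 with 2 surrogate variables called these 3 genes and Rasd1. ENSRNOG00000022392 was 10.3 to 12.8 CPM in proestrus and 12.1 to 16.5 CPM in diestrus (−0.40 ± 0.11, SE).

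Promoter sequence was examined for the letters of hormone response elements, at which estradiol and progesterone receptors act, and of the cAMP response element. Windows of 300 bases (250 before to 50 after the gene start, RefSeq, GRCr8) were available for 16 of the 20 leading genes, and not for C1qtnf1, Dlx2, Cbln1 and Fundc1. The full palindromic consensus of the estrogen response element was in 0 of these 16 windows and in 0.0269% of all 33469 windows. The consensus shared by progesterone and glucocorticoid receptors was also in 0 of 16 and in 0.0299% of all. Both strands were searched. The cAMP response element TGACGTCA was in 2 of the 16, Sstr2 and Nos1, in 3.12% of the 1312 windows of tested genes with a symbol, and in 1.83% of all windows. The 250 bases before the start of Rasd1, the leading gene, and of the 2 genes with a cAMP element are shown 5′ to 3′ on the gene's strand, with TGACGTCA in capitals. Rasd1 is on the minus strand at chr10:45267683-45267932, Sstr2 on the plus strand at chr10:99163103-99163352 and Nos1 on the minus strand at chr12:44371838-44372087.
Rasd1: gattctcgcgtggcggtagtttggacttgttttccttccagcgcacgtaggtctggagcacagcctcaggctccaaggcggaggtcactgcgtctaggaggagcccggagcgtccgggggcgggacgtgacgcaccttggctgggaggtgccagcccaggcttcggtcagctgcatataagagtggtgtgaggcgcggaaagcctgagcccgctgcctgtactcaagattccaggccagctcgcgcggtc
Sstr2: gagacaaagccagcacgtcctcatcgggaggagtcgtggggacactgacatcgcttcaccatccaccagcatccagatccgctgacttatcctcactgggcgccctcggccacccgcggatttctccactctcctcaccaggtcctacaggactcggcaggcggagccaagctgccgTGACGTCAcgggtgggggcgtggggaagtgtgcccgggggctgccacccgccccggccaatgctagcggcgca
Nos1: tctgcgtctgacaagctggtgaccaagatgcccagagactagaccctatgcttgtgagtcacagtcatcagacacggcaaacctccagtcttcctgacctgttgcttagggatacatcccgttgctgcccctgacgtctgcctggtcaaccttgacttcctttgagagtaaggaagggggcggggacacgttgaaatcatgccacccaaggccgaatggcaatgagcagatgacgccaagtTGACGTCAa
The capitals begin 73 bases before the start of Sstr2 and 9 bases before that of Nos1, and the Rasd1 window holds none. A match of letters is a description of the window and says nothing of binding in these neurons.

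The same stage contrast in libraries that played no part in the ranking gave the leading genes a second reading. In saline-treated D2 libraries, 0 of 13340 genes were called (0%) and 546 (4.09%) had an unadjusted p under 0.05. In ketamine-treated D1 libraries, 0 of 13220 were called (0%) and 516 (3.90%) had p under 0.05. Leaving out each library in turn moved the unadjusted count between 256 (without library 21) and 985 (without library 23) in saline D2 libraries, and in ketamine D1 libraries it rose to 790 (without library 10) and 1124 (without library 20). DESeq2 with 2 surrogate variables called 0 genes in saline D2 libraries, where 394 had p under 0.05, and 2 in ketamine D1 libraries, where 348 did. Of the 20 leading genes, 16 had the same direction in saline D2 libraries, against 57.7% of all genes tested in both, and 16 of 20 also without the shallow library 39. In ketamine D1 libraries 12 of 20 had the same direction, against 55.1% of all genes. Of the genes with an unadjusted p under 0.05 in ketamine D2 libraries, 323 of 460 (70.2%) had the same direction in saline D2 libraries and 270 of 455 (59.3%) in ketamine D1 libraries. The 10 leading genes higher in proestrus matched in 9 of 10 in saline D2 libraries and the 10 lower ones in 7 of 10.

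Rasd1 was 26.4 to 29.3 CPM in saline proestrus D2 libraries and 20.0 to 29.7 CPM in saline diestrus D2 libraries. The groups overlapped, and the log2 fold change was 0.24 ± 0.10 (SE; unadjusted p = 0.032, edgeR adjusted p = 0.987). It was 0.14 without saline library 15 and 0.38 without saline library 31. In ketamine D1 libraries Rasd1 was 17.4 to 23.2 CPM in proestrus and 16.7 to 23.1 CPM in diestrus (0.03 ± 0.09, SE). The mean of Rasd1 in ketamine diestrus D2 libraries, 20.4 CPM, lay beside 20.7 and 21.0 CPM in the D1 groups, and the ketamine proestrus D2 libraries held the highest mean of the 6 groups compared. Nrip1 was 28.8 to 34.4 CPM in saline proestrus and 25.3 to 29.0 CPM in saline diestrus D2 libraries (0.14 ± 0.07, SE), and had a log2 fold change of −0.06 ± 0.06 (SE) in ketamine D1 libraries. Nos1 had 0.37 ± 0.18 (SE) in saline D2 and 0.11 ± 0.19 (SE) in ketamine D1 libraries, where its mean level was 31.0 CPM in diestrus and 32.8 CPM in proestrus, above the 6.50 and 12.1 CPM of the ketamine D2 groups. RGD1561381 had −0.21 ± 0.39 (SE) and 0.43 ± 0.44 (SE), and its ketamine D1 estimate ran from 0.04 to 0.97 over the alternatives. Cux2 had an unadjusted p under 0.05 in ketamine D1 libraries as well (0.23 ± 0.09, SE; 0.15 to 0.28 over the alternatives), in the same direction.

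**Figure D4:**
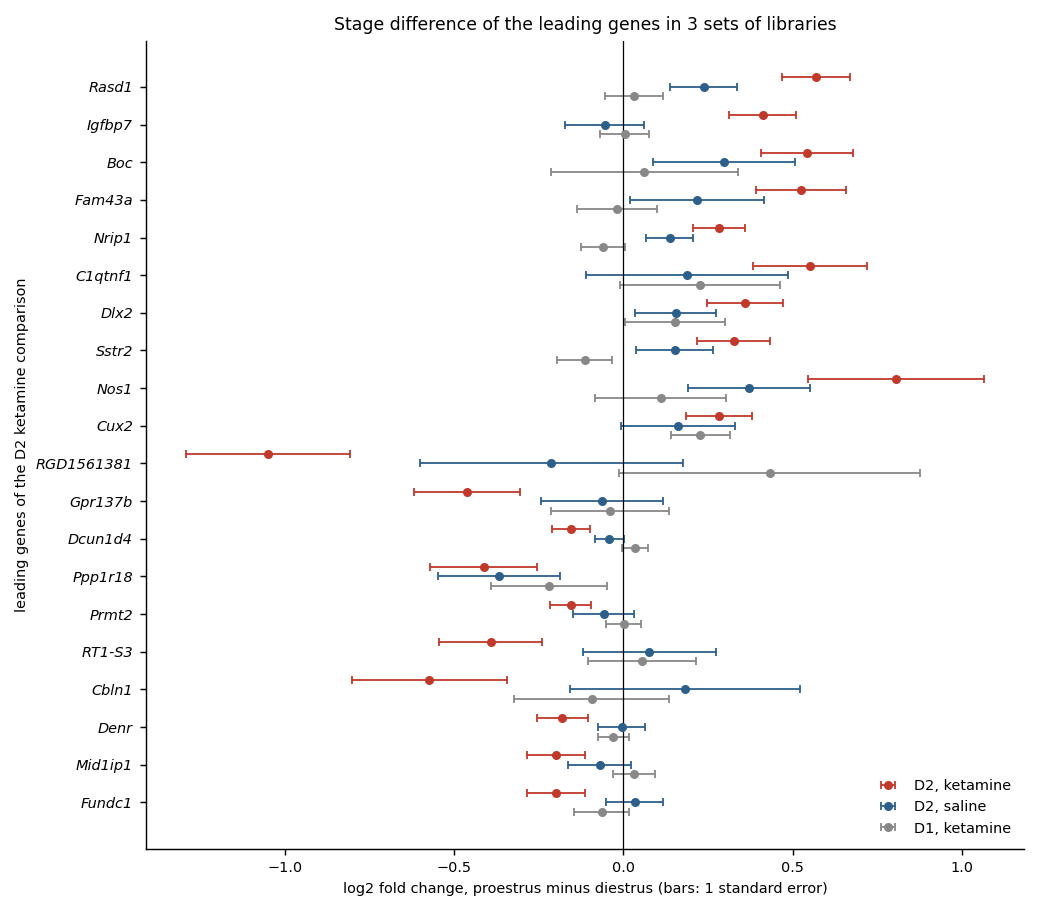
Stage difference of the 20 leading genes in ketamine D2, saline D2 and ketamine D1 libraries. The x axis is the log2 fold change, proestrus minus diestrus, with bars of 1 SE from edgeR. The ketamine D2 points lie farthest from 0 for nearly all genes because the genes were ranked by them; 16 of 20 saline D2 points and 12 of 20 ketamine D1 points lie on the same side of 0.

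The difference between contrasts was tested by interaction terms. No gene was called for stage by treatment in D2 libraries (0 of 13881, 0%; 248 or 1.79% with an unadjusted p under 0.05 in edgeR; 0 called by DESeq2 and 229 under 0.05). No gene was called for stage by cell type in ketamine-treated libraries (0 of 13850, 0%; 530 or 3.83% with an unadjusted p under 0.05 in edgeR), while DESeq2 with 2 surrogate variables called 2 genes, both without a symbol. For stage by treatment, Trpm2 and Meltf were among the 3 genes with a symbol of lowest p. Trpm2, a calcium-permeable channel, had an interaction of 0.22 and Meltf, an iron-binding membrane protein, one of 0.96, with unadjusted p of 0.016 for both. Their stage differences within ketamine D2 libraries were smaller, at 0.08 and 0.17, and Meltf was low there, at 0.77 to 1.96 CPM.

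For stage by cell type, the genes with a symbol and the lowest p were Col5a2, Rasd1 and Nrip1. Rasd1 had an interaction of 0.56 ± 0.14 (SE; unadjusted p = 4.5e-04, edgeR adjusted p = 0.776) and Nrip1 one of 0.35 ± 0.10 (unadjusted p = 0.0030). These 2 had been ranked on the D2 side of this contrast. Col5a2, a fibrillar collagen chain, had −1.07 ± 0.26 (SE; edgeR adjusted p = 0.776), from −0.29 ± 0.14 in D2 (−0.68 without library 6) and 0.62 ± 0.19 in D1 libraries. In ketamine D2 libraries it was 7.91 CPM in proestrus library 6, 2.35 to 3.56 CPM in the remaining 3 and 4.36 to 7.72 CPM in diestrus. Without library 6 the interaction was −1.47 and was called, with 6 further genes. Col11a2, the only gene of the study's ketamine list that could be looked up, showed the same library: it was 42.1 CPM in proestrus library 6, 15.7 to 20.0 CPM in the remaining 3, and 19.4 to 41.4 CPM in diestrus. Its log2 fold change in the main fit, with 2 surrogate variables, was −0.08 ± 0.14 (SE) with library 6 and −0.38 without it. With library 6 kept but no surrogate variables, it was −0.38 under blocks of library numbers and close to that without blocks. The value of −0.08 thus depended on the number of surrogate variables as well as on library 6. Col5a2 was likewise more negative than in its main fit when library 6 was kept without surrogate variables. The interaction of Col11a2 was −0.93 ± 0.32 (SE; unadjusted p = 0.012, edgeR adjusted p = 1.00). In ketamine D1 libraries Col11a2 was 13.0 to 19.0 CPM in proestrus and 8.94 to 13.1 CPM in diestrus (0.66 ± 0.12, SE; unadjusted p = 5.5e-05, edgeR adjusted p = 0.361). DESeq2 called it there (adjusted p = 0.0012 with 2 surrogate variables), as did edgeR without D1 library 34 or 36. The part of glial, vascular and fibroblast RNA in library 6 in these values was not tested.

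Gene lists chosen by function were described by counts, since only a fraction of their members could be matched to a symbol. No member of any list was called. Over all lists, 9 of the 147 distinct members tested (6.12%) had an unadjusted p under 0.05, beside 3.45% of all genes. The lists were chosen with earlier results of these data known, so this share is a description. Of the 71 named genes other than the 20 leading ones with a symbol, 58 moved by over 1.5 times or changed sign when some single library was left out, so these estimates describe the libraries at hand. Several of the 71, Gsk3b, Rgs4 and Grik1 among them, also moved by over 1.5 times without surrogate variables. In the same fit, 53.5% of all genes and 55.4% of genes with a symbol had a positive log2 fold change.

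Of the 14 steroid receptor genes listed, which mediate the action of ovarian and adrenal steroids, only Gper1, the membrane estrogen receptor, was paired, and it was too low to test at under 0.6 CPM in every library. Of the nuclear receptor coregulators, Nrip1 had an unadjusted p under 0.05, with the values given above. Cyp19a1, the aromatase that makes estradiol from androgens, was 0.60 to 1.17 CPM in proestrus and 0.55 to 0.85 CPM in diestrus (0.64 ± 0.30, SE; unadjusted p = 0.051). Hsd17b10, a mitochondrial steroid dehydrogenase, had −0.14 ± 0.09 (SE), and −0.26 without library 6. Cdkn1a, a cell cycle inhibitor induced by glucocorticoids, had 0.13 ± 0.25 (SE).

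Immediate early genes, which neurons transcribe within minutes of activity, were tested for 8 members. The rats had been back in the drug-paired chamber for 30 min. Btg2, an antiproliferative early gene, was 5.17, 4.70, 4.01 and 4.50 CPM in proestrus and 5.85, 6.06, 5.80, 4.70 and 7.02 CPM in diestrus, with overlap through library 32 (−0.32 ± 0.14, SE; unadjusted p = 0.043). Nptx2, a secreted pentraxin that clusters AMPA receptors, had 0.28 ± 0.14 (SE) and Ier3 −0.47 ± 0.35 (SE). Without library 6 these were 0.18 and −0.78. Nptx2 had 0.09 without surrogate variables. The median of the 8 was 0.02, beside 0.01 for all genes, and 5 of 8 were above 0. It was 0.09 without library 6, 0.07 without surrogate variables and −0.07 to 0.16 over libraries left out.

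Among receptors, 0 of 4 glutamate receptor genes had an unadjusted p under 0.05. Grik1 and Grik2, kainate receptor subunits, had 0.23 ± 0.17 and −0.11 ± 0.06 (SE), and Grm4, a presynaptic metabotropic receptor, 0.12 ± 0.08. Without library 6 Grik2 had −0.03, without library 16 Grik1 had 0.12, and without library 40 Grm4 had 0.03. Of 8 GABA receptor genes 1 had an unadjusted p under 0.05: Gabra4, an extrasynaptic receptor subunit abundant in MSNs, at 75.1 to 113 CPM in proestrus and 50.0 to 116 CPM in diestrus (0.14 ± 0.07, SE; 0.23 without library 6). The median of the 8 was −0.03, and 0.09 without library 6. Of 6 dopamine signaling genes 0 had an unadjusted p under 0.05. Adcy5, the striatal adenylyl cyclase, had 0.12 ± 0.08, Rgs4 0.26 ± 0.15, and Rgs9, a striatal regulator of G protein signaling, −0.06 ± 0.13 (SE). Without library 6 they were 0.18, 0.11 and −0.24, and without library 40 Adcy5 had 0.05. Gad1, the GABA-synthesizing enzyme of all MSNs, was 1010 to 1211 CPM in proestrus and 958 to 1208 CPM in diestrus (0.02 ± 0.05, SE; 0.04 without library 6). The 4 potassium channel genes, among them Kcnj6, a G protein-gated channel, with 0.26 ± 0.20 and Kcnh1 with 0.14 ± 0.07 (SE), had 0 members with an unadjusted p under 0.05. Kcnk10, a background potassium channel, was the member farthest from 0, at −0.43 ± 0.44 (SE), and had 0.18 without library 6. The median of the 4 was 0.08, and 0.17 without library 6. Over libraries left out Kcnj6 ran from 0.12 to 0.38, and it was 0.17 without library 6 and 0.08 without surrogate variables.

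Of 10 respiratory chain genes 1 was above 0, and of 9 mitochondrial ribosomal protein genes 0 were, and 1 of these 19 had an unadjusted p under 0.05. The lists had medians of −0.06 and −0.06 beside 0.01 over all genes. Ndufv3, a subunit of complex I, was 59.4, 58.8, 58.2 and 57.5 CPM in proestrus and 66.9, 67.8, 61.6, 63.9 and 63.5 CPM in diestrus, with no overlap (−0.14 ± 0.06, SE; unadjusted p = 0.040). Ndufb4, also of complex I, had −0.12 ± 0.06, and the mitochondrial ribosomal proteins Mrpl1 and Mrpl27 had −0.20 ± 0.11 and −0.17 ± 0.09 (SE). Without library 6, Ndufb4 had −0.19 and Mrpl1 −0.36. Both medians were further below 0 without library 6, at −0.18 and −0.14, came as near to 0 as −0.02 and −0.04 over the other libraries left out, and neither list had a called gene. The 6 cytosolic ribosomal genes had a median of 0.01, with Rps4x at 0.73 ± 0.40 (SE) and Rpl24 at −0.07 ± 0.07. Without library 6 the median was −0.08 and the estimates were 0.07 and −0.16. Ribosomal genes have many near-identical copies, so these values are uncertain for that reason too.

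Of 4 chaperone genes all were above 0 and 1, Dnajb5, had an unadjusted p under 0.05, at 118 to 155 CPM in proestrus and 97.5 to 155 CPM in diestrus (0.23 ± 0.10, SE). Of 14 collagen, laminin and integrin genes 2 had an unadjusted p under 0.05, both higher in proestrus. Of the 14, 8 were above 0, and the median was 0.05, but −0.14 without surrogate variables. Col18a1, a basement membrane collagen, had 0.27 ± 0.11 (SE), while Col5a2 and Col11a2, with values given above, were below 0. Of 34 solute carrier genes 24 were above 0, and 1, the zinc transporter Slc30a4, had an unadjusted p under 0.05 (0.14 ± 0.06, SE). The iron exporter Slc40a1 had 0.54 ± 0.27 (SE), and 0.10 without library 6, where it was 3.17 CPM beside 1.05 to 1.37 CPM in the other proestrus libraries. Without surrogate variables, Slc40a1 had 0.25 and Slc30a4 0.09. Interferon and antigen processing genes had a median of −0.22 over 4 tested, which was −0.05 without library 6, with Tap1 and Tap2, the peptide transporter of MHC class I, at −0.34 ± 0.32 and −0.25 ± 0.18 (SE). Library 32 carried the highest Tap1 value, and Tap1 had −0.12 without library 6 and −0.08 without diestrus library 40. Proteasome, synaptic vesicle, BDNF and mTOR signaling, m6A and circadian genes had 0 members with an unadjusted p under 0.05: Psmd2 had 0.09 ± 0.06, Snap29 0.09 ± 0.07, Gsk3b 0.14 ± 0.16, Prrc2a 0.12 ± 0.07 and Clock 0.08 ± 0.08 (SE). Without library 6, Psmd2 had 0.06, Gsk3b 0.53, Prrc2a 0.26 and Clock 0.22.

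**Figure D5:**
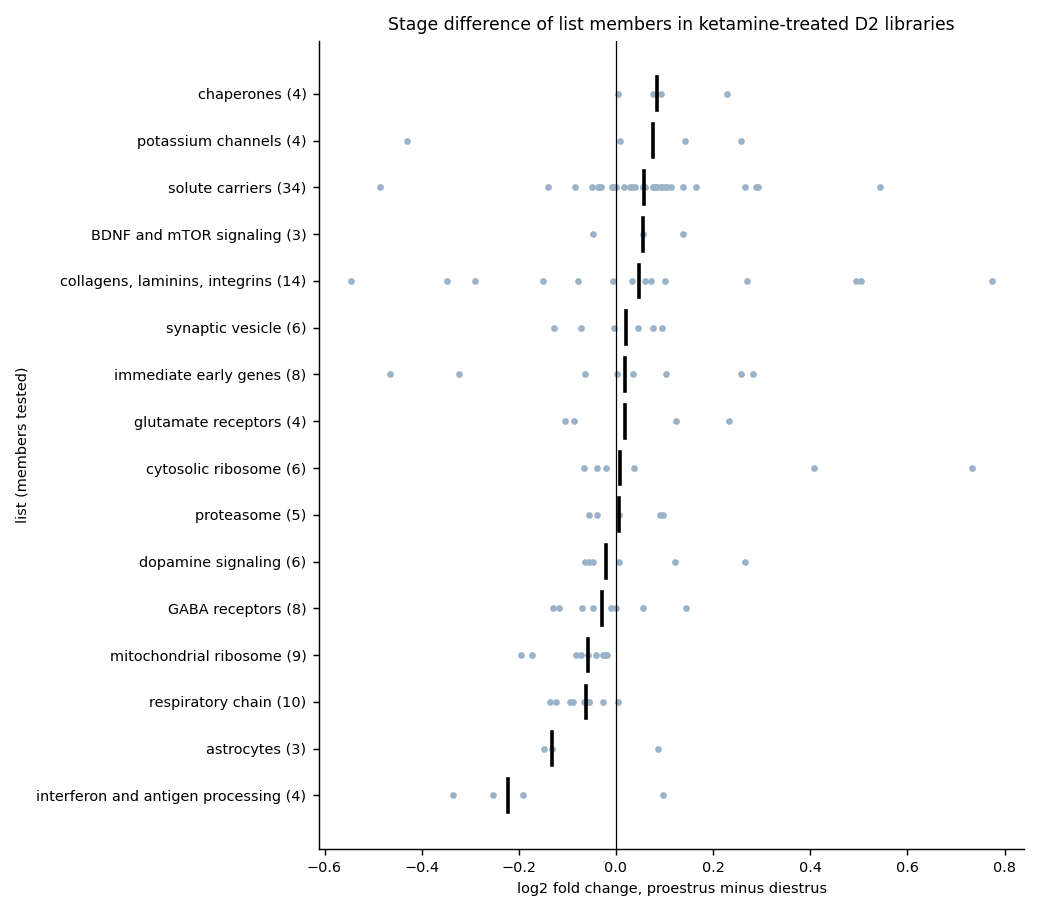
Stage difference of list members in ketamine D2 libraries, for lists with 3 or more genes tested. The x axis is the log2 fold change, proestrus minus diestrus; dots are genes, the black mark is the list's median, and the number of genes tested follows each name. The medians run from −0.22 for interferon and antigen processing genes to 0.08 for chaperones, and without proestrus library 6 from −0.34 for astrocytes to 0.17 for potassium channels; no gene shown passed the adjusted threshold.

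Markers of other cells in the pulldown overlapped between the stages when all 9 libraries were counted. Estimates of the astrocyte genes Gja1 and S100b were further below 0 without library 6, and also with it but without surrogate variables. The astrocyte genes Gja1, S100b and Gfap had −0.13 ± 0.08, −0.15 ± 0.07 and 0.09 ± 0.15 (SE), where Gja1 was 38.1 CPM in proestrus library 6 and 21.3 to 23.0 CPM in the remaining 3, and Gfap was 43.2 CPM in diestrus library 32 and 19.1 to 25.2 CPM in the other diestrus libraries. Without library 6, Gja1 had −0.35 and S100b −0.34, the astrocyte median went from −0.13 to −0.34, and Gja1 did not overlap with its 25.8 to 37.9 CPM in diestrus. The direction of Gfap turned to −0.15 without surrogate variables. The oligodendrocyte gene Mog had 0.04 ± 0.13 (SE), and the microglial genes Aif1 and Tmem119 −0.31 ± 0.37 and 0.26 ± 0.32. Without library 6 these were −0.24 for Mog, −0.81 for Aif1 and −0.14 for Tmem119. Mog also turned to −0.16 without surrogate variables, so no direction is given for it.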

How the data were processed

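RNA on tagged ribosomes was pulled down from NAc punches of single female rats (D2-Cre, or D1-Cre for comparison) and sequenced as stranded poly(A) libraries. Reads were trimmed by the authors with fastp 0.23.4 and quantified with Salmon 1.10.2 on the mRatBN7.2 transcriptome, with bias correction, then summed per gene. The deposited values are expected counts per gene as whole numbers, without any scaling, in 23978 rows.

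Genes were filtered with edgeR 4.0.16 (filterByExpr on the groups, with 10 as the lowest count), scaled by TMM and compared by the quasi-likelihood test with robust dispersions and 2 surrogate variables (svaseq, sva 3.50.0), in R 4.3.3. A gene was called at a Benjamini-Hochberg adjusted p under 0.1, the false discovery rate of the study. The count model of each contrast held only the libraries of its own groups. The SE is the log2 fold change divided by the square root of its F statistic. CPM of single genes are TMM-normalized over all 39 libraries, and single genes were compared by 2-sided exact permutation tests. DESeq2 1.42.0, other scalings and filters, other numbers of surrogate variables, blocks of 8 library numbers and each library left out were tried as alternatives. The steps were tested on simulated data. Libraries of a group came from separate rats, and no pair of the 9 libraries agreed within sampling noise (lowest mean chi-square per gene 2.48). More depth gives less counting error, and totals of the 9 libraries differed by less than 3-fold.

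Symbols were found for 1966 identifiers (8.2%), from the identifier and symbol columns of the authors' tables. The copies of those tables read here were incomplete and held 1998 identifiers, and no value of them was used. Genes were named by rule: the 10 of lowest p with a symbol in each direction, up to 2 identifiers per direction without one, the 3 of lowest p of each interaction, and from each list the 3 members of lowest p and its first 2 members. Some genes the rule picks are not reported here. Members and lists were chosen with earlier results of these data known. Promoter windows came from RefSeq (GRCr8) and were matched by gene number. Lists count members present under a symbol only.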

Additional observations from a re-analysis of the deposited data

Results flagged for a closer look

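Single libraries far from the rest of their group were searched for among 91 genes in the 2 groups, by the gap to the nearest library over the group's range; 13 of 182 were beyond the 95% limit of Dixon's test, and chance alone gives about 1 in 20. Of these 13, 7 were proestrus library 6: Cux2 at 16.2 CPM (others 24.1 to 24.4), Gja1 at 38.1 CPM (others 21.3 to 23.0), Cdkn1a at 3.90 CPM (others 3.10 to 3.23), Col11a2 at 42.1 CPM (others 15.7 to 20.0), Gsk3b at 25.4 CPM (others 43.6 to 45.3), Psmb1 at 188 CPM (others 175 to 176), Slc40a1 at 3.17 CPM (others 1.05 to 1.37). Diestrus library 32 stood apart in Gfap at 43.2 CPM (others 19.1 to 25.2) and Tap1 at 3.49 CPM (others 1.05 to 1.40). Diestrus library 40 stood apart in ENSRNOG00000049099 at 7.08 CPM (others 1.44 to 3.05) and Vamp4 at 34.7 CPM (others 30.0 to 30.6). Proestrus library 22 stood apart in Adora2a at 972 CPM (others 782 to 795). Proestrus library 38 stood apart in ENSRNOG00000022392 at 12.8 CPM (others 10.3 to 10.6).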

How the results depend on the processing

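No paired analysis was run, because the labels tie no library of one group to a library of another. The titles number the libraries in runs of 8 with at most 1 of each group, which no source used here calls a batch or a pairing; a fit with these blocks and no surrogate variables left 0 genes called and 316 with an unadjusted p under 0.05 in ketamine D2 libraries, against 259 without the blocks. With 4 and 5 libraries, a difference had to be large against a median SE of 0.098 on the log2 scale to pass adjustment, and most genes, the D2 receptor gene among them, could not be looked up by symbol. The count of called genes in ketamine D2 libraries stayed at 0 under 1 or no surrogate variable, DESeq2 size factors in edgeR, both filters, blocks of library numbers and a threshold of 0.05. The number of surrogate variables from num.sv was 2 in this contrast, which repeats the main fit. It was 4 for both interactions, with 0 called. There 421 genes for stage by treatment and 620 for stage by cell type had an unadjusted p under 0.05 in edgeR. DESeq2 called 4 genes with and 3 without surrogate variables, the model of all 39 libraries called 1, and leaving out each library gave 0 to 1, the latter without diestrus library 32. In saline D2 libraries the count was 1 without a filter. In ketamine D1 libraries it was 2 under DESeq2 with or without surrogate variables, 3 without a filter, 1 with 10 counts required in every library, and 0 to 1 over libraries left out (1 without library 20, 28, 34 or 36). For stage by cell type DESeq2 with surrogate variables called 2, and leaving out each library gave 0 to 7, the latter without library 6. Leaving out each library moved the median of GABA receptors between −0.080 and 0.088, of respiratory chain genes between −0.18 and −0.018 and of mitochondrial ribosome genes between −0.14 and −0.036. Leaving out libraries 6 and 32 together, chosen after the data were seen, gave 0 called and 2048 unadjusted. The Adora2a ratio was 4.49 to 4.88 over libraries left out and 4.63 with DESeq2 size factors. The direction of the 20 leading genes in ketamine D2 libraries held under every alternative, but 7 moved by over 1.5 times without some library, and 8 under another alternative, Sstr2, Mid1ip1, Prmt2, Cbln1 and Igfbp7 among them. No value below passed its test, and the cause of each turn was not tested. Log2 fold changes for ketamine D2 turned under blocks of 8 consecutive library numbers (Meltf −0.018, Gfap −0.13, Mog −0.12, Ythdc1 0.0048), with libraries 6 and 32 left out together (Adora2a −0.074, Mog −0.28, Tmem119 −0.041, Rgs5 0.091, Col1a1 −0.011, Kcnk10 0.22, Mx2 0.11), under no surrogate variables (Gfap −0.15, Mog −0.16), under 1 surrogate variable (Gfap −0.084, Mog −0.14), under DESeq2 without surrogate variables (Gfap −0.15, Mog −0.16), under one model of all 39 libraries (Gfap −0.11, Mog −0.15), under no filter on low counts (Mog −0.025). Over libraries left out, ketamine D2 ran from Adora2a −0.088 to 0.17, Rgs9 −0.24 to 0.069, Gad1 −0.0082 to 0.037, Gfap −0.045 to 0.24, Mog −0.24 to 0.12, Pdgfra −0.13 to 0.053, Tmem119 −0.14 to 0.62, Rgs5 −0.36 to 0.12, Flt1 −0.41 to 0.077, Col1a1 −0.062 to 0.56, Cdkn1a −0.031 to 0.33, Col11a2 −0.38 to 0.014, Vgf −0.062 to 0.11, Kcnk10 −0.69 to 0.18, Gsk3b −0.019 to 0.53, Ythdc1 −0.060 to 0.0016, Mx2 −0.47 to 0.065, Psmc1 −0.13 to 0.0034. Log2 fold changes for saline D2 turned under blocks of 8 consecutive library numbers (RT1-S3 −0.041, Denr 0.0073, ENSRNOG00000049099 −0.024), under no surrogate variables (Denr 0.0076), under DESeq2 without surrogate variables (Denr 0.0081, ENSRNOG00000049099 −0.036), under at least 10 counts in every library (Denr 0.0079), under one model of all 39 libraries (Denr 0.00030). Over libraries left out, saline D2 ran from Igfbp7 −0.14 to 0.071, C1qtnf1 −0.014 to 0.36, RGD1561381 −0.50 to 0.13, Gpr137b −0.21 to 0.013, RT1-S3 −0.037 to 0.22, Cbln1 −0.023 to 0.32, Denr −0.044 to 0.041, Fundc1 −0.012 to 0.10, ENSRNOG00000022392 −0.060 to 0.19. Log2 fold changes for stage by treatment turned under blocks of 8 consecutive library numbers (Sstr2 −0.0088). Over libraries left out, stage by treatment ran from Fam43a −0.064 to 0.22, Sstr2 −0.037 to 0.20, Ppp1r18 −0.11 to 0.21, Mid1ip1 −0.14 to 0.021. Log2 fold changes for ketamine D1 turned under no surrogate variables (Igfbp7 −0.012, RT1-S3 −0.0011), under DESeq2 without surrogate variables (Igfbp7 −0.011), under one model of all 39 libraries (Igfbp7 −0.019, Cbln1 0.056), under blocks of 8 consecutive library numbers (Igfbp7 −0.0090), under at least 10 counts in every library (Fam43a 0.0047), under 1 surrogate variable (Prmt2 −5.9e-05), under no filter on low counts (Prmt2 −0.011). Over libraries left out, ketamine D1 ran from Rasd1 −0.030 to 0.093, Igfbp7 −0.038 to 0.051, Boc −0.098 to 0.33, Fam43a −0.094 to 0.087, Dlx2 −0.024 to 0.24, Nos1 −0.0048 to 0.23, Gpr137b −0.19 to 0.039, Prmt2 −0.035 to 0.047, RT1-S3 −0.15 to 0.11, Cbln1 −0.33 to 0.020, Mid1ip1 −0.0021 to 0.089, Fundc1 −0.13 to 0.0021, ENSRNOG00000042702 −0.0030 to 0.095, ENSRNOG00000049099 −0.37 to 0.55. Over libraries left out, stage by cell type ran from Ppp1r18 −0.19 to 0.011.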
